A study of Mus musculus with 10 samples.

Results

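The response of cortical miRNAs to the loss of DGCR8 was set against their response to the loss of Dicer, as the difference of 2 effects: DGCR8 KO minus DGCR8 WT, less Dicer KO minus Dicer WT. The comparison used 8 of the 10 libraries of the study, with 2 mice in each of 4 groups: conditional knock-outs of DGCR8 (DGCR8 KO), wild types of that line (DGCR8 WT), conditional knock-outs of Dicer (Dicer KO) and wild types of that line (Dicer WT). All were cortex of embryos at stage E13.5, and small RNA was sequenced from 1000 ng of total RNA. The DGCR8 heterozygotes did not enter. The driver of the deletions, the share of cells that lost either gene and the strain background could not be read from the sources used here, and the mRNAs of Dicer and DGCR8 are not measured in small RNA libraries, so the genotype labels could not be checked on the deleted genes.

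Most miRNAs pass through both enzymes. In the nucleus, DGCR8 binds the primary transcript and positions Drosha, which cuts out the precursor hairpin, and in the cytoplasm Dicer trims the hairpin to the mature duplex. A minority reach Dicer without the nuclear cut: mirtrons are short introns that fold into hairpins after splicing, some precursors such as miR-320 and miR-484 are transcribed directly as short hairpins, and a few are cut from tRNAs or snoRNAs. miR-451a is the reverse case, since it needs the nuclear step and is then trimmed by AGO2 and not by Dicer.

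Of 547 miRNAs tested, 14 (2.56%) were called in the difference at an adjusted p below 0.05, in edgeR's quasi-likelihood test with Benjamini-Hochberg adjustment over all 547. Every adjusted p given here comes from that fit unless an alternative analysis is named beside it; alternatives that change the libraries, reads or filter were adjusted over the miRNAs they could test. A positive difference means a higher level in DGCR8 KO relative to its wild type than in Dicer KO relative to its own, so it can come from a rise in DGCR8 KO, a fall in Dicer KO or both. The difference was positive for 5 (0.914%), and all 5 belong to groups of miRNAs described as independent of DGCR8: the mirtrons miR-6944-3p, miR-6958-3p and miR-702-3p, the tRNA-derived miR-1983 and the directly transcribed miR-484. It was negative for 9 (1.65%): miR-23a-3p, miR-27a-3p and miR-24-2-5p of 1 cluster, both arms of miR-126a, miR-486-5p, miR-22-3p, miR-135a-2-3p and miR-3535. RefSeq on GRCm38.p6 gives the mature sequence of 12 of the 14, and the names miR-126a-5p and miR-486-5p had no entry. The sequences are shown because they tell apart near-identical relatives described below, and their seeds, bases 2 to 8 in capitals, are all distinct.
miR-6944-3p: uAACUCUUcccuugugcccucag
miR-6958-3p: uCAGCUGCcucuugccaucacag
miR-702-3p: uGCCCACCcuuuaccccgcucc
miR-1983: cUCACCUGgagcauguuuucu
miR-484: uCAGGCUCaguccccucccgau
miR-23a-3p: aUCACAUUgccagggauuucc
miR-27a-3p: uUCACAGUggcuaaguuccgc
miR-24-2-5p: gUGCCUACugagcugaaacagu
miR-126a-3p: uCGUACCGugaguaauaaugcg
miR-22-3p: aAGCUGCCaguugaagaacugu
miR-135a-2-3p: uGUAGGGAuggaagccaugaa
miR-3535: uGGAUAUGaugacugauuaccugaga

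The hairpins of 3 of the positive miRNAs are printed next because their ends show how they relate to introns and tRNA, with the mature part in capitals. Mir6944 (chr13:55477681-55477776, minus strand) spans a 96-base intron of Dbn1 from its first base to its last in 4 GENCODE transcripts, so the mature miRNA ends with the intron's last base. Mir6958 (chr15:89185465-89185537, minus strand) likewise spans a 73-base intron of Dennd6b in 4 transcripts, and lies in exon sequence in 2 others. Mir1983 (chr13:21896918-21897049, minus strand) encloses the RefSeq tRNA gene n-TItat14, and 13 of the 21 bases of the mature miRNA fall inside that gene.
Mir6944: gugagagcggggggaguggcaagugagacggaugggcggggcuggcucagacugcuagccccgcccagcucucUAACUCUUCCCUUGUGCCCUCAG
Mir6958: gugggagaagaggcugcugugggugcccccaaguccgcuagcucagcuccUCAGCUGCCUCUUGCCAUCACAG
Mir1983: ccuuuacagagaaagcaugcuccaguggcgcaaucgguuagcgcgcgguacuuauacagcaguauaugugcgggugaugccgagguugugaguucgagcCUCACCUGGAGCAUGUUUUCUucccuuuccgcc

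Library depth differed between the lines and is part of every comparison below. Reads assigned to miRNAs numbered 2011508 and 1535333 in DGCR8 KO, against 2608742 and 2420701 in DGCR8 WT, and 983318 and 800623 in Dicer KO, against 4006217 and 4486774 in Dicer WT. The Dicer KO libraries were thus the shallowest and the Dicer WT libraries the deepest. Levels are given as CPM, counts per 1000000 miRNA reads after TMM scaling, a per-library factor that centres the bulk of miRNAs; a general loss of miRNA would not show on this scale. The median difference over all 547 was 0.05 (log2), and 283 of them (51.7%) were above 0. At the median SE of 0.44 a log2 difference of 1.97 would be needed for a call with 2 mice per group, while miRNAs measured with a smaller SE were called at smaller differences, such as miR-22-3p at −0.97 with an SE of 0.21. With library totals in place of TMM the median moved up by 0.14 and 5 of 8 calls were positive (62.5%, against 35.7% in the TMM fit), and with scaling to vessel and blood miRNAs it moved up by 0.83 and 130 of 133 were positive (97.7%).

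Each knock-out alone changed many more miRNAs than the difference did. In DGCR8 KO 49 rose (8.96%) and 52 fell (9.51%), or 18.5% of the tested miRNAs in all. In Dicer KO 87 rose (15.9%) and 79 fell (14.4%), or 30.3% in all. The lines differed without any deletion too: 18 miRNAs were higher (3.29%) and 40 lower (7.31%) in DGCR8 WT than in Dicer WT, or 10.6% in all. The rises made up 48.5% of the DGCR8 KO calls (61.5% with DESeq2 size factors, 89.4% with library totals and 4.31% with vessel and blood scaling), and 52.4% of the Dicer KO calls (69.9% with library totals and 1.07% with vessel and blood scaling). The 2 effects had the same sign for 400 of 547 miRNAs, and across miRNAs, which are not independent replicates, Pearson's r was 0.54 over all 547 and 0.71 over the 89 with a mean of at least 1000 CPM. Both knock-outs raised 32 miRNAs and lowered 28, and none of either set was called in the difference. Calls of opposite sign in the 2 knock-outs were made for 3 miRNAs, and all 3 were called in the difference. miR-6944-3p and miR-6958-3p rose in DGCR8 KO and fell in Dicer KO, and miR-135a-2-3p fell in DGCR8 KO and rose in Dicer KO. The 49 called rises in DGCR8 KO became 14 with libraries thinned to equal depth and 9 with vessel and blood scaling. With library totals they became 110, and they were fewer when any 1 DGCR8 library was left out. Calls of single miRNAs within 1 knock-out were not followed through such alternatives, so the stability of the opposite signs was not tested.

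**Figure D1:**
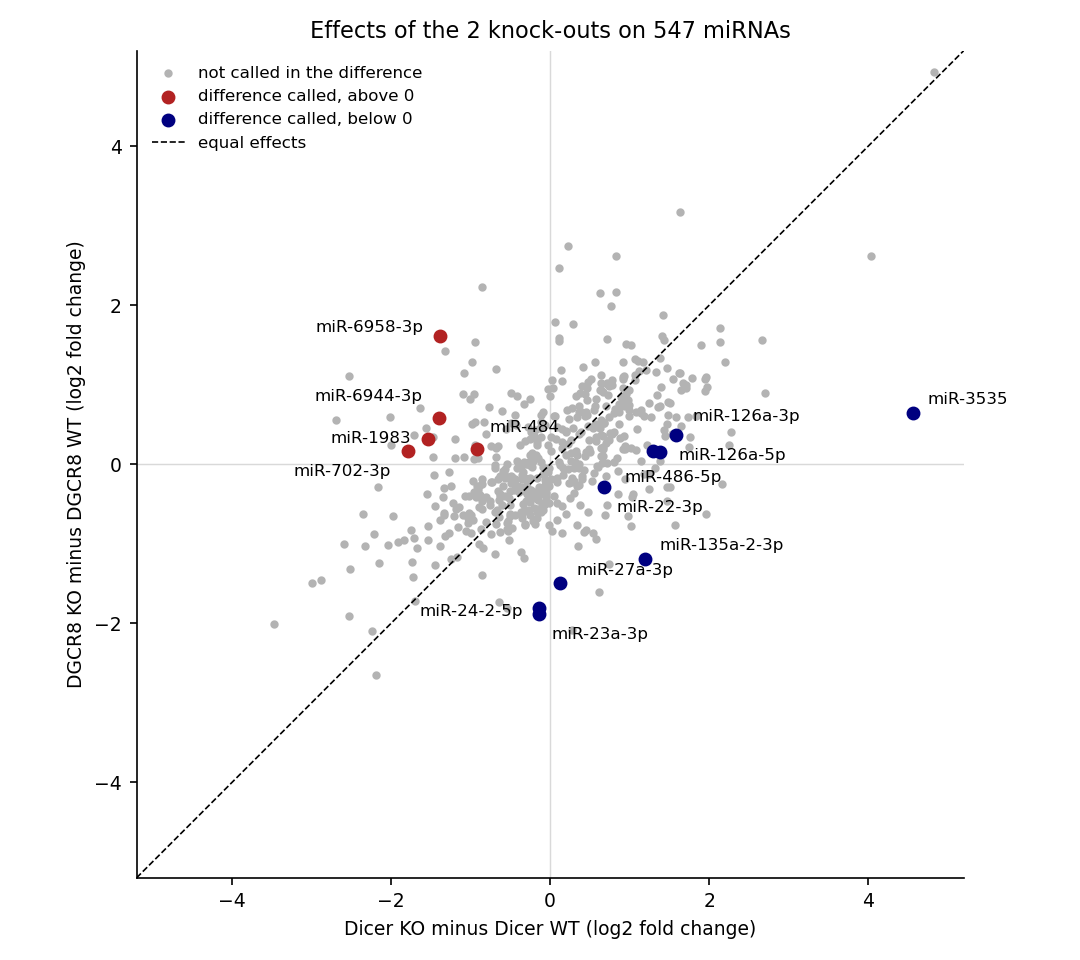
Each point is 1 of 547 miRNAs, with its log2 fold change in Dicer KO over Dicer WT on the x axis and in DGCR8 KO over DGCR8 WT on the y axis; red and blue points are the 5 and 9 called above and below 0 in the difference of effects, and the dashed line marks equal effects. The cloud runs along the dashed line (r = 0.54), the 5 red points lie above it on the side where Dicer KO is lower, and the points of miR-23a-3p and miR-24-2-5p lie below it near 0 on the Dicer axis.

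Of the 14 called miRNAs, the mirtron miR-6944-3p had the lowest adjusted p in the difference. miR-6944-3p, from the intron of Dbn1, the gene of the actin-binding protein drebrin, had 3206 and 3480 CPM in DGCR8 KO, against 2173 and 2283 CPM in DGCR8 WT. It had 1163 and 1031 CPM in Dicer KO, against 3124 and 2655 CPM in Dicer WT. Every DGCR8 KO library was thus above both DGCR8 WT libraries and every Dicer KO library below both Dicer WT libraries. How many miRNAs separate in this way within a line was not counted. Effects that did not overlap between the 2 lines were found for 190 of 547 miRNAs. The level of miR-6944-3p changed by 0.59 ± 0.17 in DGCR8 KO (log2, SE, adjusted p = 0.0383) and by −1.40 ± 0.17 in Dicer KO (adjusted p = 2.28e-04), a difference of 1.98 ± 0.24 (3.95-fold, adjusted p = 0.00368). The call of the difference held in 17 of 18 alternative analyses and was lost without DGCR8 WT replicate 2, where the difference was 1.98. The called rise in DGCR8 KO was not followed through these alternatives.

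miR-702-3p (chr5:136991520-136991541, plus strand) lies in Plod3, which encodes a collagen-modifying enzyme, and its hairpin begins 9 bases before a 102-base intron and ends 2 bases short of the intron's end. It had 166 and 140 CPM in DGCR8 KO, against 132 and 140 CPM in DGCR8 WT. It had 43.1 and 65.6 CPM in Dicer KO, against 177 and 196 CPM in Dicer WT. The DGCR8 groups touched and the Dicer groups were far apart, and the difference was 1.96 ± 0.34 (adjusted p = 0.0163). Its reads without a 3′ addition were too few to test, so the call rests mostly on reads that carry one. Without any 1 of the 4 DGCR8 libraries, or with libraries thinned to equal depth, the call was lost (adjusted p up to 0.101), while the difference stayed between 1.78 and 2.24 when any 1 library was left out.

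miR-6958-3p, from the intron of Dennd6b, is a low-count member, with 33 and 29 reads in DGCR8 KO, 12 and 10 in DGCR8 WT, 4 and 2 in Dicer KO, and 31 and 32 in Dicer WT. On the CPM scale these were 13.1 and 15.9 in DGCR8 KO, against 4.73 and 4.63 in DGCR8 WT, and 4.01 and 2.43 in Dicer KO, against 8.84 and 8.42 in Dicer WT. Neither pair of groups overlapped. miR-6958-3p passed the filter on low counts mainly through DGCR8 KO and Dicer WT, the groups in which it is high. Both favour a positive difference, so the size of its difference is not independent support. The difference was 2.99 ± 0.56 (95% interval 1.75 to 4.23, adjusted p = 0.0262), with a change of 1.61 in DGCR8 KO and −1.38 in Dicer KO. It was not called with the libraries thinned to equal depth, in DESeq2, without any 1 DGCR8 library or without Dicer KO replicate 2 (adjusted p up to 0.661), and its values stayed between 2.22 and 3.78.

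None of the other mirtrons was called in edgeR's test over all 547, though some were in alternative analyses, and nearly all had positive differences. Among the 11 tested members of the early-described mirtrons (miR-877, miR-702, miR-1224, miR-1981, miR-1982 and miR-3102) 11 were above 0, with a median of 1.36, a median DGCR8 KO effect of 0.44 and a median Dicer KO effect of −0.94. In Dicer KO 4 of the 11 fell and 0 rose, and in DGCR8 KO 0 were called. Both arms of miR-877, miR-702 and miR-1981 are among the 11, so these are not independent members. The survey mirtrons, taken as miR-6896 to miR-7094 from a later annotation of mouse mirtrons, had 21 tested members, of which 20 were above 0, with a median of 1.49. In Dicer KO 5 of them fell and 0 rose, and in DGCR8 KO 2 rose and 0 fell. Most survey mirtrons were scarce, and 16 of the 21 averaged under 10 CPM, as did 4 of the 11 early-described ones. The filter on low counts can admit a scarce miRNA through 1 group in which it is high. Entry through DGCR8 KO or Dicer WT favours a positive difference, so the counts above 0 among scarce members are not independent support.

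miR-877-5p, from an 85-base intron of Abcf1, illustrates the uncalled members. It had 165 and 215 CPM in DGCR8 KO, against 133 and 158 CPM in DGCR8 WT. It had 93.2 and 121 CPM in Dicer KO, against 197 and 179 CPM in Dicer WT. Its fall in Dicer KO was called (−0.81 ± 0.23, adjusted p = 0.0227) and its difference of 1.19 ± 0.32 was not (adjusted p = 0.0848). The difference was called in DESeq2 (adjusted p = 0.0357), with no filter on low counts (0.0214) and with vessel and blood scaling (2.04, adjusted p = 0.00569). The other arm of the same hairpin, miR-877-3p, gave the same difference of 1.19 ± 0.38 (adjusted p = 0.139). miR-7068-3p, from a 74-base intron of Cherp, gave 1.47 ± 0.39 (adjusted p = 0.0811), and miR-3102-3p gave 1.49 ± 0.47 (adjusted p = 0.137). Both were called with no filter (adjusted p = 0.0183 and 0.0215), without Dicer KO replicate 1 (0.0298 and 0.0457) and with vessel and blood scaling (0.00650 and 0.00862), and miR-3102-3p also without Dicer WT replicate 2 (0.0461). miR-1981-3p, whose hairpin fills an 82-base intron of Marc2, was the least displaced of the early mirtrons, at 0.63 ± 0.36 (95% interval −0.18 to 1.44, adjusted p = 0.392).

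Hairpin positions in the annotation gave a grouping that does not use names. RefSeq hairpin coordinates were available for 440 of the tested miRNAs, and each hairpin was placed against the GENCODE introns on its strand. For 10 miRNAs the hairpin began and ended within 2 bases of both ends of an intron, as a mirtron does; 10 of these 10 had a positive difference, with a median of 1.42. For 21 more it lay at 1 intron end, as in mirtrons with a tail, and 17 of these were positive, with a median of 0.48. The 12 of these in the mirtron groups had 11 positive and a median of 1.53. The 9 outside the mirtron, directly transcribed, tRNA and snoRNA, and miR-344 groups had 6 positive and a median of 0.10, close to the 0.05 of all 440. They were mixed. Those of the imprinted 12qF1 cluster (miR-369, miR-382 and miR-668) lay between −0.16 and 0.29. The others lay between −0.47 (miR-3087-3p) and 2.01 (miR-7226-3p). miR-7226-3p and miR-3076-3p (1.16) had Dicer KO effects of −1.56 and −1.27. Both were picked after their values were seen, and miR-3076-3p averaged 4.46 CPM. The miRNAs with a hairpin inside an intron, away from its ends, numbered 219, of which 118 were positive, with a median of 0.09. The 190 not placed in an intron had 82 positive and a median of −0.12. They include 3 of the 5 calls above 0. Among them are 3 members of the mirtron groups, with a median of 1.96, such as miR-702-3p, whose hairpin begins 9 bases before its intron. The 10 that span an intron count both arms of Mir877 and of Mir1981. Of them, miR-1224-5p, miR-1982-3p, miR-3547-3p and miR-6958-3p averaged under 10 CPM, as did most miRNAs at 1 intron end. Over all miRNAs the median difference was 0.48 with no filter on low counts and −0.07 with a minimum mean of 10 CPM. The named groups hold 9 of the 10 that span an intron. The 1 outside them, miR-3547-3p from an 88-base intron of Baiap3, was at 1.47, and was singled out after its value was seen. It averaged 5.95 CPM, and its effect was 1.76 in DGCR8 KO and 0.29 in Dicer KO. The 9 in the mirtron groups had a median Dicer KO effect of −0.94, so it did not share their fall.

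**Figure D2:**
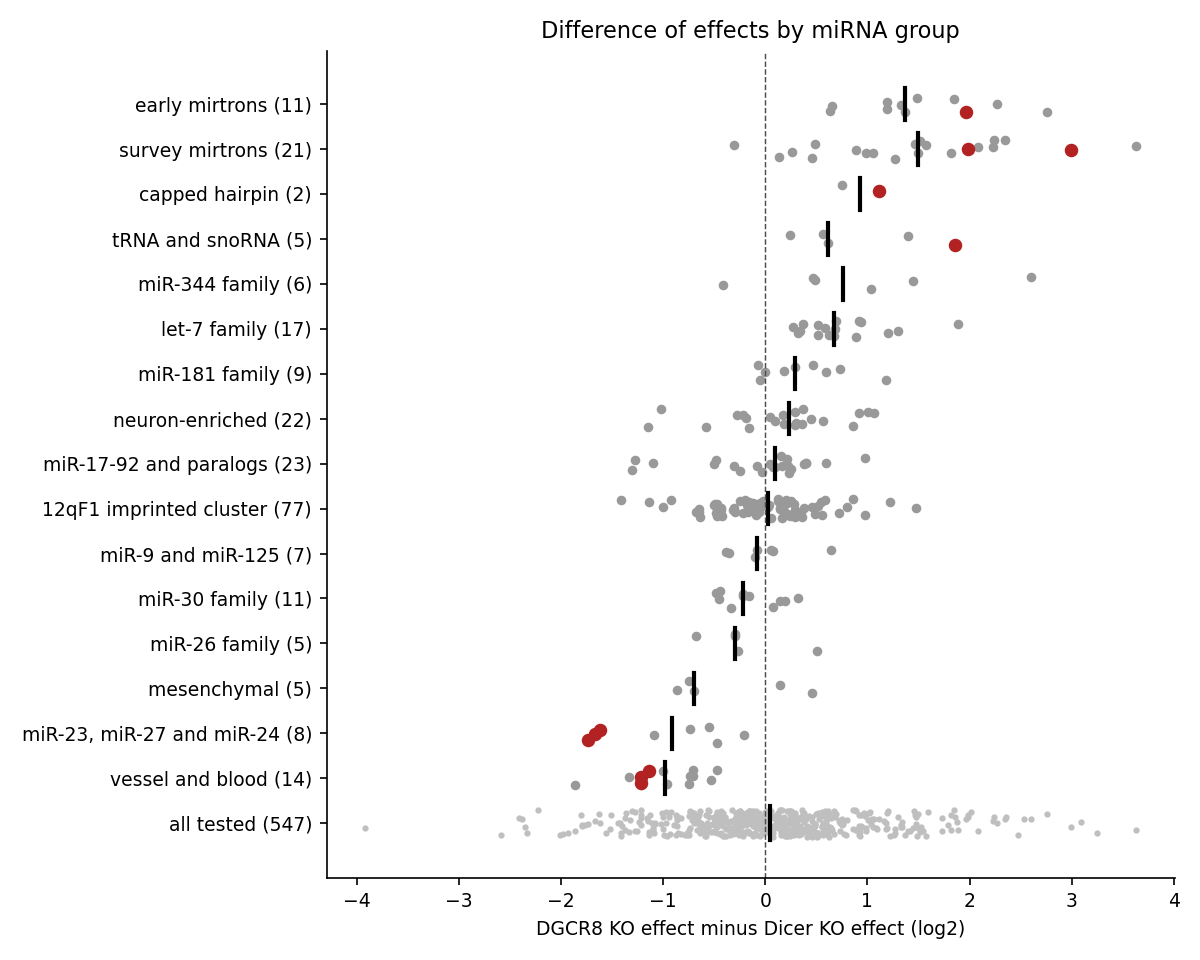
Differences of effects (log2, x axis) by miRNA group, with 1 point per tested miRNA, red where called, a black bar at the group median and the number tested in brackets; vertical scatter within a row has no meaning. The 2 mirtron groups have medians of 1.36 and 1.49, the vessel and blood group has 14 of 14 points below 0, and the 12qF1 cluster is centred at 0.02 like all tested miRNAs at 0.05.

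Of the miRNAs with other routes around DGCR8, miR-1983 and miR-484 were also called above 0. miR-1983 had 1283 and 1464 CPM in DGCR8 KO, against 1032 and 1165 CPM in DGCR8 WT. It had 446 and 403 CPM in Dicer KO, against 1149 and 1308 CPM in Dicer WT. Its level in Dicer KO was far below that in Dicer WT, and the groups did not overlap in either line. The difference was 1.85 ± 0.26 (adjusted p = 0.00733), of which the fall in Dicer KO was called (−1.53 ± 0.19, adjusted p = 2.28e-04) and the change in DGCR8 KO was not (0.32 ± 0.18, adjusted p = 0.221). The call was lost without DGCR8 KO replicate 2 or either DGCR8 WT replicate (adjusted p up to 0.0893). The snoRNA-derived miR-1839-5p (0.61 ± 0.31, adjusted p = 0.337) and miR-664-3p (0.25 ± 0.52, adjusted p = 0.801) were above 0 and not called. All 5 tested members of this tRNA and snoRNA group were above 0, with a median of 0.61, counting both arms of miR-1839 and miR-664. The group does not include miR-3535, described below. Its sequence also lies in an annotated snoRNA, and its difference was −3.92.

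miR-484 (chr16:14159630-14159651, plus strand) has no host gene in GENCODE, and its hairpin lies upstream of Nde1, the gene with the nearest annotated start on its strand. It had 3540 and 3798 CPM in DGCR8 KO, against 3083 and 3315 CPM in DGCR8 WT, and 1842 and 1793 CPM in Dicer KO, against 3432 and 3421 CPM in Dicer WT. The replicates were close and the groups did not overlap in either line. The difference was 1.11 ± 0.21 (2.16-fold, adjusted p = 0.0283), with a called fall in Dicer KO (−0.91 ± 0.15, adjusted p = 0.00165) and no call in DGCR8 KO (0.20 ± 0.15, adjusted p = 0.360). It was not called in reads without a 3′ addition, without any 1 DGCR8 library or without Dicer WT replicate 1 (adjusted p up to 0.190). miR-320-3p, the other directly transcribed member, gave 0.75 ± 0.28 (95% interval 0.13 to 1.37, adjusted p = 0.177).

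The miR-344 family lay mostly on the same side with other effects, and no route around DGCR8 is described for it here. miR-344-3p had 681 and 670 CPM in DGCR8 KO, against 327 and 321 CPM in DGCR8 WT, and 250 and 205 CPM in Dicer KO, against 241 and 207 CPM in Dicer WT. It rose in DGCR8 KO (1.06 ± 0.19, adjusted p = 0.0110) with no call in Dicer KO (0.02 ± 0.20, adjusted p = 0.943), and the difference of 1.04 ± 0.28 was not called (adjusted p = 0.0811; 0.0139 in DESeq2, 0.0259 with no filter on low counts, 0.0209 without Dicer KO replicate 1 and 0.00415 with vessel and blood scaling). Of the 6 tested members 5 were above 0 in the difference, with a median of 0.76, and 4 rose in DGCR8 KO while 2 rose in Dicer KO.

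Counted together, the 4 groups with a described route around DGCR8 and the miR-344 family held 45 tested miRNAs, of which 43 had a positive difference. Their median was 1.33, with 5 called above 0 and 0 below. Without the miR-344 family, which had 2 called rises and 0 falls in Dicer KO, 38 of 39 were positive, with a median of 1.36. Scarce members could enter through 1 high group, as described above. Arms of 1 hairpin, as in miR-877 and miR-1839, were counted separately, so the members are not independent. The 502 tested miRNAs outside the 5 groups had 240 positive, a median of −0.05, 0 called above 0 and 9 below. These 9 include miR-3535, whose sequence lies in a snoRNA but which was not on the tRNA and snoRNA list. The share of all miRNA reads taken by the 5 groups was 1.35% and 1.39% in DGCR8 KO, against 0.788% and 0.775% in DGCR8 WT, and 0.499% and 0.502% in Dicer KO, against 0.864% and 0.794% in Dicer WT. The share was therefore higher than in every wild-type library in DGCR8 KO and lower than in every wild-type library in Dicer KO. From 66.1% to 78.8% of these reads came from miR-6944-3p, miR-484 and miR-1983. Base composition moved with the groups as well: the median GC content was 57.1% for the 41 with a sequence and 47.8% over all 471 matched miRNAs. Over the other 430 the Pearson correlation of GC content with the difference was 0.08.

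**Figure D3:**
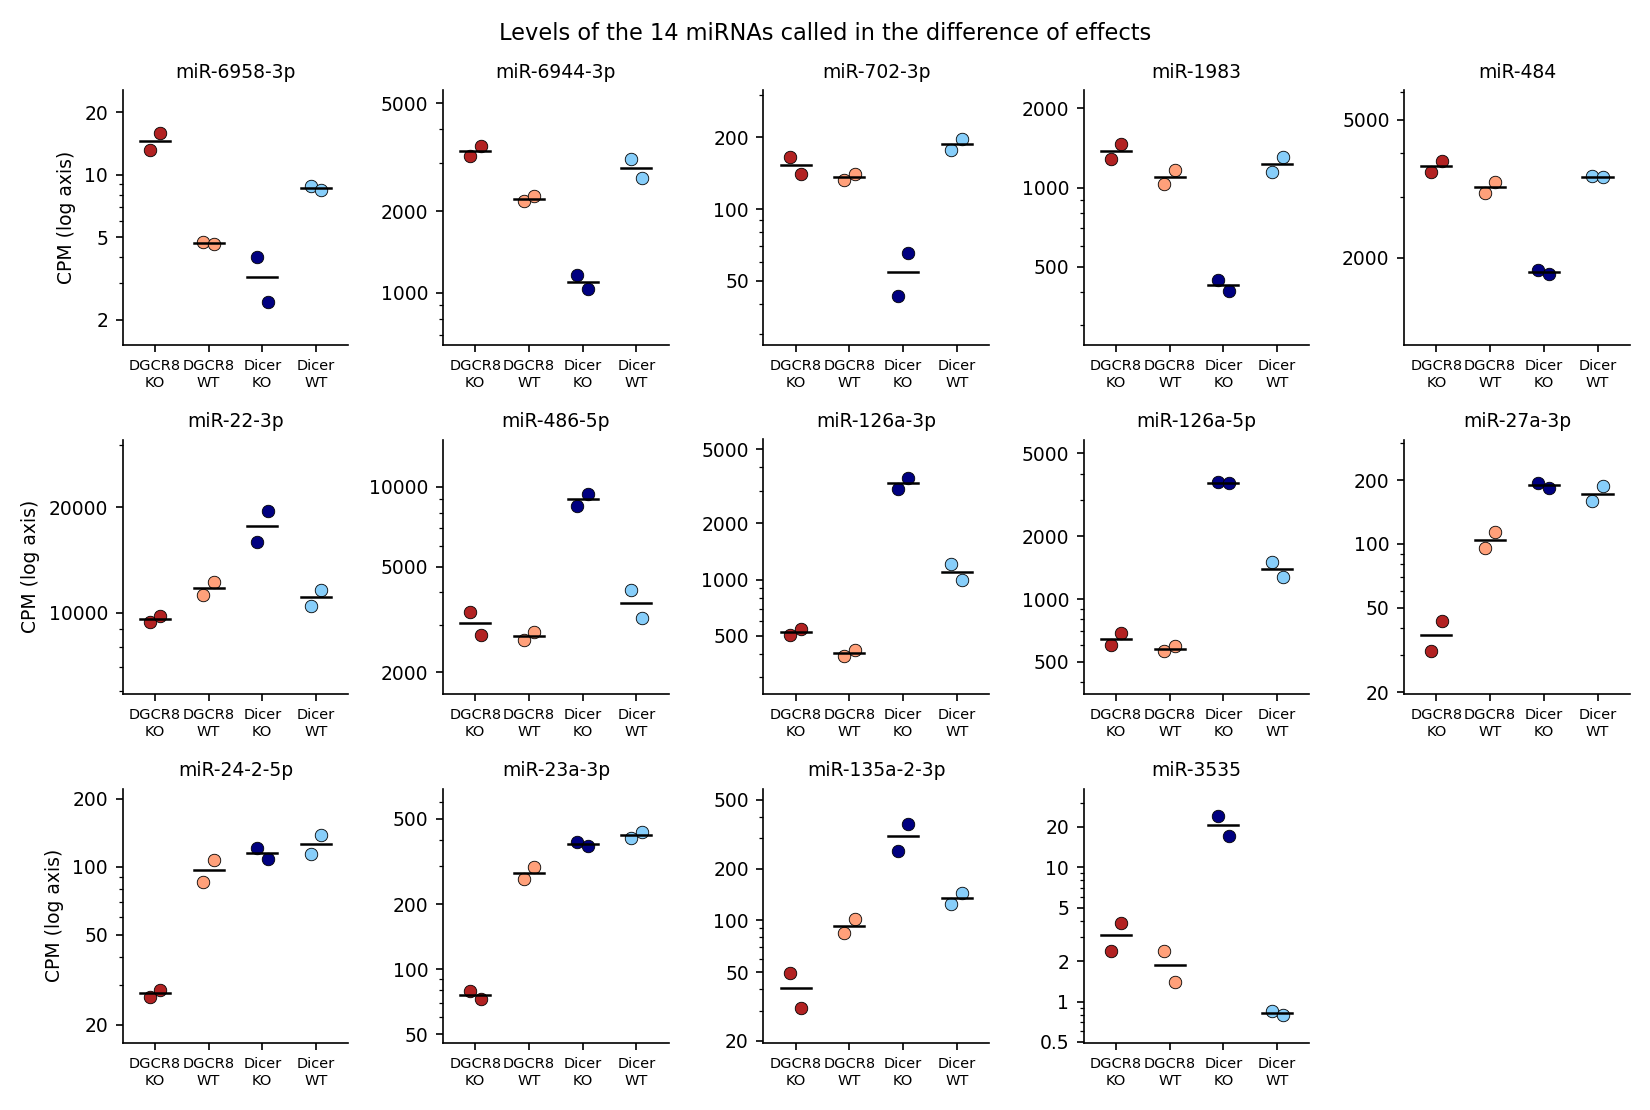
Levels of the 14 miRNAs called in the difference, in CPM on log axes that differ between panels, with 1 point per library, a bar at the group mean, and panels ordered from the highest difference (miR-6958-3p, 2.99) to the lowest (miR-3535, −3.92). In the first 5 panels Dicer KO lies below Dicer WT, in the panels of miR-27a-3p, miR-24-2-5p and miR-23a-3p DGCR8 KO is the lowest of the 4 groups, and in those of miR-126a and miR-486-5p Dicer KO stands above them.

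On the negative side, the mir-23a cluster fell in DGCR8 KO and was near its wild-type level in Dicer KO. Its 3 hairpins lie within 404 bases (chr8:84208518-84208921, plus strand). miR-23a-3p had 79.5 and 72.9 CPM in DGCR8 KO, against 262 and 299 CPM in DGCR8 WT, and 388 and 371 CPM in Dicer KO, against 405 and 431 CPM in Dicer WT. The DGCR8 KO libraries were far below their wild types, while the Dicer groups differed little. The change was −1.88 ± 0.20 in DGCR8 KO (adjusted p = 4.06e-04) and −0.14 ± 0.19 in Dicer KO (adjusted p = 0.576), a difference of −1.74 ± 0.27 (adjusted p = 0.0117).

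The neighbours in the cluster followed the same course. miR-27a-3p had 31.4 and 43.3 CPM in DGCR8 KO, against 95.4 and 114 CPM in DGCR8 WT, and 194 and 183 CPM in Dicer KO, against 159 and 187 CPM in Dicer WT, a difference of −1.62 ± 0.33 (adjusted p = 0.0296). miR-24-2-5p had 26.6 and 28.5 CPM in DGCR8 KO, against 85.5 and 107 CPM in DGCR8 WT, and 121 and 108 CPM in Dicer KO, against 114 and 139 CPM in Dicer WT, a difference of −1.67 ± 0.33 (adjusted p = 0.0296). In both, the 2 DGCR8 KO libraries were the lowest of the 8. The 3 calls were lost without any 1 DGCR8 library, and those of miR-27a-3p and miR-24-2-5p also without Dicer WT replicate 1 (adjusted p up to 0.190), with the differences between −1.89 and −1.31. Those 2 calls were also lost in thinned libraries and with vessel and blood scaling, and that of miR-27a-3p with library totals and in reads without a 3′ addition (−0.95, adjusted p = 0.262).

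The paralogous mir-23b cluster on chromosome 13 makes nearly the same RNAs at higher levels. miR-27b-3p differs from miR-27a-3p by C19U, counted from 1 at the 5′ end of miR-27a-3p.
miR-27b-3p: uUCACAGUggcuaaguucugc
It had 3734 and 3858 CPM in DGCR8 KO, against 4270 and 4696 CPM in DGCR8 WT, and 6766 and 6213 CPM in Dicer KO, against 5546 and 5489 CPM in Dicer WT. Its difference was −0.47 ± 0.21 (95% interval −0.93 to −0.02, adjusted p = 0.239), and that of miR-23b-3p was −0.55 ± 0.26 (adjusted p = 0.272), and both were above 0 with vessel and blood scaling (0.36 and 0.28). miR-24-3p, which has the same sequence in both clusters and was added after its values were seen, was intermediate, at −0.74 ± 0.31 (adjusted p = 0.217), and was above 0 with that scaling (0.10). The sources used here do not say how reads were assigned between such near-identical names. Over the 8 tested members of both clusters the median was −0.91 (−0.10 with vessel and blood scaling), 0 were above 0, 5 fell in DGCR8 KO and 0 were called in Dicer KO.

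The second negative pattern was in vessel and blood miRNAs, of which 3 were called. miR-126a, made in endothelial cells from within Egfl7, had 508 and 541 CPM of its 3p arm in DGCR8 KO, against 392 and 422 CPM in DGCR8 WT, and 3072 and 3518 CPM in Dicer KO, against 1205 and 999 CPM in Dicer WT. Both Dicer KO libraries were above every other library and both Dicer WT libraries above all DGCR8 ones, so the wild types differed already (−1.44 in DGCR8 WT over Dicer WT, adjusted p = 7.89e-04). The difference of effects was −1.21 ± 0.26 for this arm (adjusted p = 0.0321) and −1.22 ± 0.25 for miR-126a-5p (adjusted p = 0.0296), which had 602 and 690 CPM in DGCR8 KO, 562 and 595 CPM in DGCR8 WT, 3643 and 3587 CPM in Dicer KO, and 1511 and 1272 CPM in Dicer WT.

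miR-486-5p, an erythroid miRNA, had 3382 and 2761 CPM in DGCR8 KO, against 2649 and 2832 CPM in DGCR8 WT, and 8502 and 9438 CPM in Dicer KO, against 4099 and 3187 CPM in Dicer WT. The DGCR8 groups overlapped and the Dicer groups did not, and the difference was −1.14 ± 0.25 (adjusted p = 0.0419). miR-143-3p, of smooth muscle, had the same sign without a call (−0.96 ± 0.23, adjusted p = 0.0671). It was called in DESeq2 (adjusted p = 0.00679), with DESeq2 size factors (0.0481), with a minimum mean of 10 CPM (0.0299), and without Dicer KO replicate 1 (0.0209) or Dicer WT replicate 1 (0.0486). The calls of both miR-126a arms and miR-486-5p were lost without any 1 DGCR8 library, without Dicer WT replicate 2 (adjusted p up to 0.190), with library totals and with vessel and blood scaling (adjusted p up to 0.301). The vessel and blood scaling is built from these same miRNAs and brings their differences near 0 by design, so a call lost under it does not bear on them. In thinned libraries miR-126a-5p and miR-486-5p were not called, in reads without a 3′ addition miR-486-5p was not, and with the heterozygotes in the fit neither miR-126a arm was.

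Of the 14 tested vessel and blood miRNAs 14 were below 0 in the difference, with a median of −0.98 (−0.15 with vessel and blood scaling, which centres these miRNAs by design). In DGCR8 KO 3 rose, and in Dicer KO 11 rose. Of the 18 names on the list 17 had reads. Their summed share of reads was 1.08% and 0.966% in DGCR8 KO, against 0.611% and 0.610% in DGCR8 WT, and 3.36% and 3.95% in Dicer KO, against 1.27% and 1.02% in Dicer WT. In bulk tissue fewer cells of a type and less RNA per cell cannot be told apart. Mesenchymal miRNAs took a larger share in each knock-out than in its wild types, and more in the Dicer line. The shares of miR-199 and miR-214 were 0.00731% and 0.0115% in DGCR8 KO and 0.00337% and 0.00297% in DGCR8 WT, against 0.212% and 0.397% in Dicer KO and 0.104% and 0.0650% in Dicer WT. Of the 5 tested, 2 were above 0 in the difference and 0 were called. In the choroid plexus and epithelium group 6 of 14 were above 0, with a median of −0.08 and 0 called. miR-199b-3p alone stood at 39.8 and 50.4 CPM in DGCR8 KO and at 1298 and 2524 CPM in Dicer KO, and miR-10b-5p, a miRNA of tissue behind the forebrain, at 6.76 and 14.8 CPM in DGCR8 KO and at 137 and 94.7 CPM in Dicer KO. These values set knock-outs of different lines side by side, so they include any difference between the lines. The difference of effects of miR-199b-3p was −0.74 (adjusted p = 0.473), and 0 of the 2 tested miR-10 and miR-196 members were called. The part of such tissue in the differences was not tested.

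miR-451a, which does not need Dicer, had 234 and 176 CPM in DGCR8 KO, against 115 and 110 CPM in DGCR8 WT, and 886 and 540 CPM in Dicer KO, against 311 and 250 CPM in Dicer WT. It rose in both knock-outs (0.87 ± 0.27, adjusted p = 0.0465 in DGCR8 KO; 1.35 ± 0.27, adjusted p = 0.00418 in Dicer KO). In each line both knock-out libraries were above both wild types. Its difference of −0.47 ± 0.37 was not called (95% interval −1.30 to 0.36, adjusted p = 0.533) and was above 0 with vessel and blood scaling (0.33), which is built in part from miR-451a. It is an erythrocyte miRNA named here for its Dicer-free route, outside the rule for named miRNAs and with its values known.

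**Figure D4:**
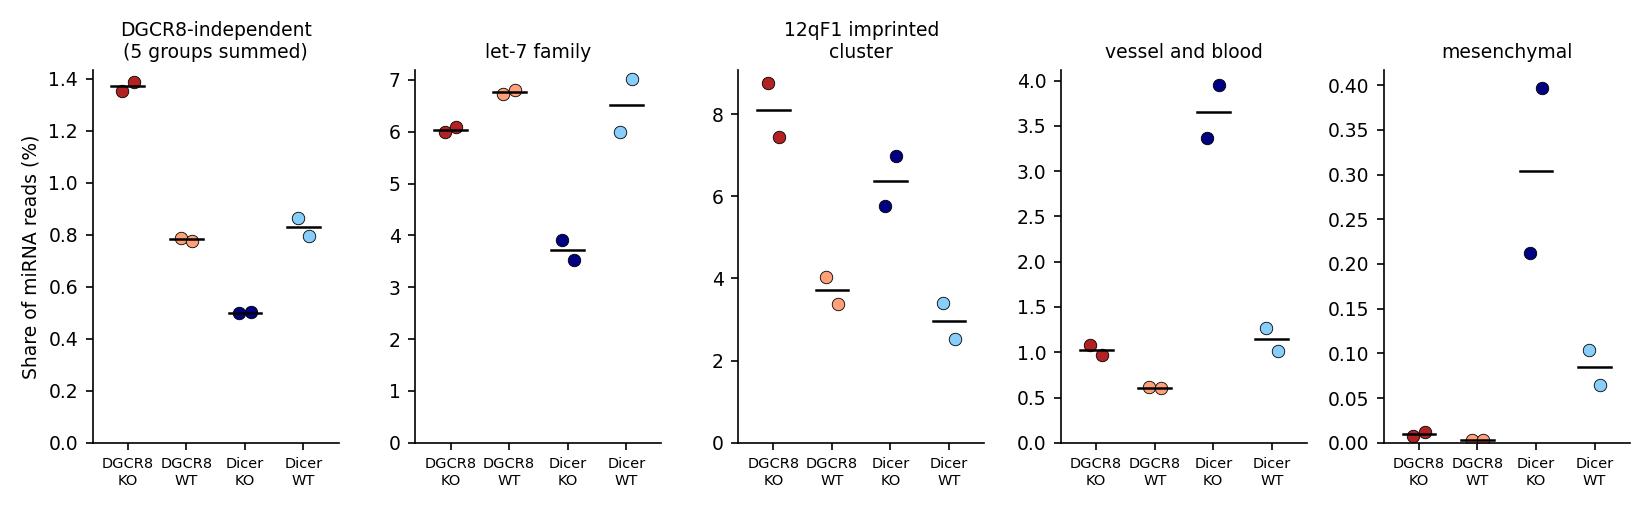
Share of miRNA reads (%) taken by 5 sets of miRNAs, with 1 point per library and a bar at the mean of each group of 2; all axes start at 0 and differ in scale. The share labelled DGCR8-independent, which counts the miR-344 family, is highest in DGCR8 KO (1.35% and 1.39%) and lowest in Dicer KO (0.499% and 0.502%). The vessel and blood share is highest in Dicer KO (3.36% and 3.95%), and the 12qF1 share is higher in each knock-out than in its wild types.

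The other 3 negative calls lay outside the mir-23a cluster and the vessel and blood group. miR-135a-2-3p, the minor arm of a hairpin in an intron of the non-coding gene Rmst (chr10:92072104-92072124, minus strand), had 49.7 and 31.2 CPM in DGCR8 KO, against 84.3 and 102 CPM in DGCR8 WT, and 253 and 364 CPM in Dicer KO, against 125 and 144 CPM in Dicer WT. It was the only miRNA with a called fall in DGCR8 KO and a called rise in Dicer KO (−1.19 ± 0.28, adjusted p = 0.0234; 1.19 ± 0.27, adjusted p = 0.00805), and the difference was −2.38 ± 0.39 (5.21-fold, adjusted p = 0.0139). In reads without a 3′ addition the difference was −0.63 (adjusted p = 0.537), and the call was also lost in thinned libraries and without DGCR8 KO replicate 2 or DGCR8 WT replicate 2 (adjusted p up to 0.0916). The main arm, miR-135a-5p, which a second gene also makes, was at −0.45 ± 0.31 (adjusted p = 0.485). Another miRNA in an intron of Rmst, miR-1251-5p, fell in both knock-outs and had a difference of the opposite sign that was not called (1.42 ± 0.38, adjusted p = 0.0823), but was in DESeq2 (0.0274), with no filter on low counts (0.00533) and with vessel and blood scaling (2.25, adjusted p = 0.00569).

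miR-22-3p, from an exon of Mir22hg, had 9410 and 9812 CPM in DGCR8 KO, against 11270 and 12210 CPM in DGCR8 WT, and 15931 and 19482 CPM in Dicer KO, against 10487 and 11636 CPM in Dicer WT. Neither line's groups overlapped, and the difference was −0.97 ± 0.21 (1.96-fold, adjusted p = 0.0358). It was −0.12 with vessel and blood scaling (adjusted p = 0.738) and was not called with library totals, with no filter on low counts, without any 1 DGCR8 library or without Dicer WT replicate 1 (adjusted p up to 0.198).

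miR-3535 had the largest difference, −3.92 ± 0.81 (adjusted p = 0.0317), and the fewest reads: 6 and 7 in DGCR8 KO, 6 and 3 in DGCR8 WT, 24 and 14 in Dicer KO, and 3 and 3 in Dicer WT. Only the Dicer KO libraries stood out, at 24.1 and 17.0 CPM, against 0.856 and 0.789 CPM in Dicer WT, with 2.39 and 3.84 CPM in DGCR8 KO and 2.36 and 1.39 CPM in DGCR8 WT. The entry lies on chromosome 1 in an intron of Ncl, the nucleolin gene, where GENCODE annotates the 80-base snoRNA Gm24148 (chr1:86352008-86352087, minus strand); all 26 bases of the mature sequence fall in it, from its first base on. It was singled out after its values were seen, since its mean was under 10 CPM. It passed the filter on low counts through Dicer KO, the group in which it is high, so the size of its difference is not independent support. The call was lost in DESeq2, in thinned libraries, with library totals, without any 1 DGCR8 library and without Dicer WT replicate 1 (adjusted p up to 0.321).

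The let-7 family, which accumulates as neural progenitors differentiate, was mostly lower in both knock-outs. In DGCR8 KO 9 of its 17 tested members, miR-98 included, fell, with a median of −0.78, and in Dicer KO 16 fell, with a median of −1.54. The difference was above 0 for 17 of 17, with a median of 0.67 (1.51 with vessel and blood scaling), and none was called. let-7c-5p had 12732 and 12751 CPM in DGCR8 KO, against 16042 and 17452 CPM in DGCR8 WT, and 8712 and 6113 CPM in Dicer KO, against 14038 and 17013 CPM in Dicer WT, a difference of 0.67 ± 0.26 (adjusted p = 0.178). The let-7c-5p difference was called without Dicer KO replicate 1 (adjusted p = 0.0210), when scarce miRNAs were not filtered out (0.0277) and with vessel and blood scaling (1.51, adjusted p = 0.0116). let-7f-5p, the other abundant member, was at 0.27 ± 0.25 (95% interval −0.29 to 0.83, adjusted p = 0.616), at −0.04 without Dicer WT replicate 2, and called with vessel and blood scaling (1.14, adjusted p = 0.0342).

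Several abundant miRNAs had effects of similar size in both knock-outs. miR-9-5p, a miRNA of neural progenitors, had 83543 and 90613 CPM in DGCR8 KO, against 139244 and 168001 CPM in DGCR8 WT, and 98590 and 76636 CPM in Dicer KO, against 136368 and 184213 CPM in Dicer WT. It fell in both (−0.82 ± 0.17, adjusted p = 0.0156 in DGCR8 KO; −0.87 ± 0.17, adjusted p = 0.00411 in Dicer KO), and the difference of 0.05 ± 0.24 had a 95% interval of −0.48 to 0.59. Falls of more than 2-fold were shared by miR-92b-3p (−1.42 ± 0.14 in DGCR8 KO and −1.73 ± 0.14 in Dicer KO; difference 0.31 ± 0.20, interval −0.12 to 0.75) and by miR-708-5p, from an intron of Tenm4 (−2.10 ± 0.22 in DGCR8 KO and −2.24 ± 0.23 in Dicer KO; difference 0.14 ± 0.31, interval −0.54 to 0.82). These differences moved with the scaling: with vessel and blood scaling the differences were 0.91 for miR-9-5p, 0.98 for miR-708-5p and 1.14 for miR-92b-3p, of which the last was called (adjusted p = 0.00650). Among the most abundant miRNAs not called, miR-92a-3p (−0.48 ± 0.17, interval −0.85 to −0.12, adjusted p = 0.144) and miR-26a-5p (−0.68 ± 0.18, interval −1.07 to −0.28, adjusted p = 0.0811) were below 0, and both were above 0 with vessel and blood scaling (0.35 and 0.17).

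The imprinted 12qF1 cluster, a long array of neuronal miRNAs near Dlk1 and Meg3, held many miRNAs that rose in each knock-out. Of its 77 tested members 26 rose and 0 fell in DGCR8 KO, and 32 rose and 0 fell in Dicer KO, with medians of 0.81 and 0.77. The median difference was 0.02, which was just below 0 with DESeq2 size factors (−0.0046) and 0.84 with vessel and blood scaling, and 39 of the 77 were above 0. miR-127-3p, the most abundant, had 20320 and 21511 CPM in DGCR8 KO, against 13091 and 11692 CPM in DGCR8 WT, and 24415 and 26285 CPM in Dicer KO, against 15911 and 11780 CPM in Dicer WT, a difference of −0.12 ± 0.23 (95% interval −0.62 to 0.39, adjusted p = 0.791), which was above 0 with library totals (0.02) and vessel and blood scaling (0.70).

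Both arms of a hairpin come from 1 precursor, so they give a view of how far the differences repeat within the same libraries. For 148 hairpins with both arms tested the differences of the 5p and 3p arms had a Pearson r of 0.65 and the same sign in 105. For the 95 with a mean of at least 10 CPM in both arms r was 0.66, with the same sign in 71. Reads without a 3′ addition made up 63.5% and 63.1% in DGCR8 KO, against 61.7% and 62.6% in DGCR8 WT, and 57.1% and 52.5% in Dicer KO, against 58.2% and 61.1% in Dicer WT. The share was slightly higher in DGCR8 KO than in its wild types and lower in Dicer KO than in its own, and this was not tested.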

How the data were processed

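Per the labels, TruSeq small RNA libraries were made from cortex RNA. The authors deposited 1 table of raw read counts, with 19414 isomiR entries (a mature miRNA name and a 3′ suffix) by 10 libraries; the submitters' processing notes name Bowtie and GRCm38, and versions, mismatches and the handling of multiple matches were not found in the sources used here. DGCR8 columns carry another run number than the sample descriptions and were matched on line and index. Here counts were summed per name (1432 names, 1226 with a read in the 8 libraries), filtered with filterByExpr (minimum count 10, total 15; 547 kept, with under 0.1% of reads dropped) and fitted with edgeR 4.0.16 in R 4.3.3 (TMM, quasi-likelihood, 1 mean per group, shared spread), the difference of effects being a contrast. The fit was tested on simulated data. ± is SE; n = 2 mice per group. Alternatives were DESeq2 1.42.0, other scalings and filters, reads without additions, thinning to 800623 reads, a replicate block and leaving out each library. Reads carry no molecular identifiers.

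The miRNAs and lists were chosen with earlier results of these data known. Named miRNAs were the called ones with at least 10 CPM and effects not overlapping between lines (up to 10 each way), those called oppositely in the 2 knock-outs, the DGCR8-independent members, the 2 most abundant and the 2 most changed called ones of each other list, and the 10 most abundant; exceptions are marked. Other lists (miR-17-92, miR-181, miR-30, miR-26, miR-15 and miR-16, neuron-enriched, choroid plexus, repeat, miR-10, muscle, pluripotency) held 0 calls in the difference. Sequences are from RefSeq (471 of 547 names matched), transcripts from GENCODE M21.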

Additional observations from a re-analysis of the deposited data

Results flagged for a closer look

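A direct test of whether the DGCR8 KO effect differed from the Dicer KO effect called 14 miRNAs, and each is listed with its log2 difference. Above 0 were miR-6958-3p (2.99), miR-6944-3p (1.98), miR-702-3p (1.96), miR-1983 (1.85) and miR-484 (1.11). Below 0 were miR-3535 (−3.92), miR-135a-2-3p (−2.38), miR-23a-3p (−1.74), miR-24-2-5p (−1.67), miR-27a-3p (−1.62), miR-126a-5p (−1.22), miR-126a-3p (−1.21), miR-486-5p (−1.14) and miR-22-3p (−0.97). Groups of 2 are too small for a test of single outlying libraries.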

How the results depend on the processing

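All 14 called differences kept their direction in every alternative that gave them a value, 16 to 18 each. Over the miRNAs given with values, 560 results under alternatives kept their direction and side of the threshold, 97 lost a call, 31 gained one and 24 changed sign. miR-320-3p, miR-1839-5p, miR-877-3p and miR-1981-3p gained a call with vessel and blood scaling and under no other alternative run. The number called in the difference moved: 8 with library totals, 133 with vessel and blood scaling, 23 in DESeq2, 51 with no filter on low counts, 9 in reads without a 3′ addition, 6 in thinned libraries, and from 0 to 51 when each library was left out. Without DGCR8 WT replicate 2 the count in edgeR was 0, with 72 at an unadjusted p below 0.05 (14 and 103 with all 8 libraries); without DGCR8 KO replicates 1 and 2 and DGCR8 WT replicate 1 it was 3, 1 and 3, and without Dicer KO replicate 1 it was 51. A group left with 1 library is assumed to vary like the others. In the DGCR8 KO effect the count was 209 with vessel and blood scaling, 32 in thinned libraries, and 4 to 170 when each library was left out; in the Dicer KO effect it was 375 and 95 under the first 2 of these. The cause of these moves was not tested, except that leaving out a library or thinning reduces the data.

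The replicate numbers of the 2 groups of a line were checked for pairing. Deviations of same-numbered samples correlated at 0.147 in the DGCR8 line and 0.0701 in the Dicer line, with 2 pairs each, and nothing in the labels ties a number to a litter or day, so they were not taken as pairs. With the replicate block the difference gave 6 calls and the DGCR8 KO effect 62. Of the 14 calls 5 were among the 6, and miR-6958-3p, miR-484, miR-24-2-5p, miR-27a-3p, both miR-126a arms, miR-486-5p, miR-22-3p and miR-3535 were not called (adjusted p from 0.0601 to 0.0819).

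Values that changed sign were not called in the TMM fit, and none was called after the change. With vessel and blood scaling they were miR-92a-3p (0.35), miR-26a-5p (0.17), miR-127-3p (0.70), miR-135a-5p (0.39), miR-23b-3p (0.28), miR-27b-3p (0.36), miR-24-3p (0.10), miR-451a (0.33) and miR-199b-3p (0.084). miR-9-5p was at −0.0021 with a minimum mean of 10 CPM and −0.043 in reads without additions, miR-127-3p at 0.021 with library totals and 0.056 with no filter, and miR-708-5p at −0.0041 in thinned libraries. When each library was left out, miR-9-5p ranged from −0.20 to 0.35, miR-127-3p −0.37 to 0.057, miR-708-5p −0.11 to 0.50, let-7f-5p −0.041 to 0.49, miR-664-3p −0.037 to 0.51 and miR-451a −0.83 to 0.021. At the depth of the shallowest library 453 miRNAs could be tested, against 547 at full depth.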
